A study of Mus musculus with 2 samples.

Results

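Complement genes were followed through sorted bone marrow cells of mice with severe aplastic anemia (SAA) and of radiation controls (RC). The set holds 9 of the 31053 genes in the count tables: the C1q chains C1qa, C1qb and C1qc, the components C3 and C4b, the alternative pathway genes Cfb and Cfp, and the receptors C3ar1 and C5ar1. SAA mice were F1 hybrids (C57BL/6;Balb/c) given 300 rads and then 65000000 B6 splenocytes, and RC mice were hybrids of the same cross given 300 rads alone, so both groups were irradiated. Each condition has 1 library, loaded with live CD11b+Ly6C+Ly6G- marrow cells that had been mixed from 3 mice, which leaves no replicates and no test between conditions. The labels give no day of harvest and no age.

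Complement is a set of plasma proteins that tag targets for clearance. C1q starts the classical pathway by binding immune complexes or dying cells, after which C4b and then C3 are laid down on the surface. The alternative pathway amplifies C3 through factor B, the product of Cfb, and is stabilised by properdin, the product of Cfp. The fragments C3a and C5a released on the way are sensed by the receptors C3ar1 and C5ar1 on myeloid cells. Macrophages are known sources of C1q, whereas most circulating C3 comes from the liver.

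The values were counts of unique molecular identifiers (UMIs), each standing for 1 captured transcript. Barcodes with at least 1000 detected genes were called monocyte-like where the summed UMIs of 5 monocyte genes (Csf1r, Ccr2, F13a1, Ms4a6c and Ly86) exceeded those of 8 granule and neutrophil precursor genes (Camp, Ngp, Fcnb, Cebpe, Elane, Mpo, Prtn3 and Ctsg), and granulocyte-like in the opposite case. The SAA library held 285 monocyte-like and 421 granulocyte-like cells, and the RC library 342 and 318, so cells of the granulocyte type made up much of a gate meant for monocytes. A further 23 SAA and 2 RC cells had equal sums, 22 of the 23 SAA cells carried at least 3 UMIs of T or NK markers, and 96 SAA and 136 RC barcodes had under 1000 genes. Total counts were 5592265 UMIs in the SAA library and 4066589 in the RC library. Monocyte-like cells were deeper in SAA, with a median of 6082 UMIs against 3347.5 in RC, whereas granulocyte-like cells held 6849 and 6787.5. Levels were therefore scaled to 1000000 UMIs of the class (CPM) with exact Poisson 95% intervals, and shares of cells were taken after thinning each cell to 2600 UMIs. Cells with fewer UMIs were left out of the thinned shares. These were 18 of 285 SAA and 76 of 342 RC monocyte-like cells, and 8 of 421 SAA and 1 of 318 RC granulocyte-like cells. The 2 libraries shared 1 barcode sequence. All intervals cover counting error only. Ratios carry exact conditional binomial 95% intervals, and a ratio of at least 2 or at most 0.5 was called past the fold where a gene had at least 20 UMIs. Few cells lay next to the class boundary. The 6 SAA monocyte-like cells that exceeded it by 1 UMI held 5 UMIs of C3, 1 of Cfb and 1 of Cfp. The 10 SAA granulocyte-like cells below it by 1 held 7 of C3, 5 of C4b, 3 of Cfb, 2 of Cfp and 1 of C5ar1. All 421 cells of that class held 58 UMIs of C4b and 38 of Cfb, so these 2 genes were above their share there.

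The genes fell into 3 kinds by the cells that held their UMIs. In the SAA library, 90.9% of C1qa, 83.9% of C1qb, 89.0% of C1qc, 86.4% of Cfb, 77.7% of Cfp and 69.8% of C4b UMIs lay in monocyte-like cells. C5ar1 was the reverse, with 90.6% of its UMIs in granulocyte-like cells. C3 was shared, with 32.1% in monocyte-like and 66.2% in granulocyte-like cells. In the RC library Cfp, C3 and C5ar1 kept this order, with 79.7%, 24.9% and 13.2% of their UMIs in monocyte-like cells, while C1qa, C1qb, C1qc, C4b and Cfb had between 1 and 5 UMIs over all barcodes. C3ar1 had 7 UMIs in SAA and 3 in RC, all outside granulocyte-like cells.

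**Figure D1:**
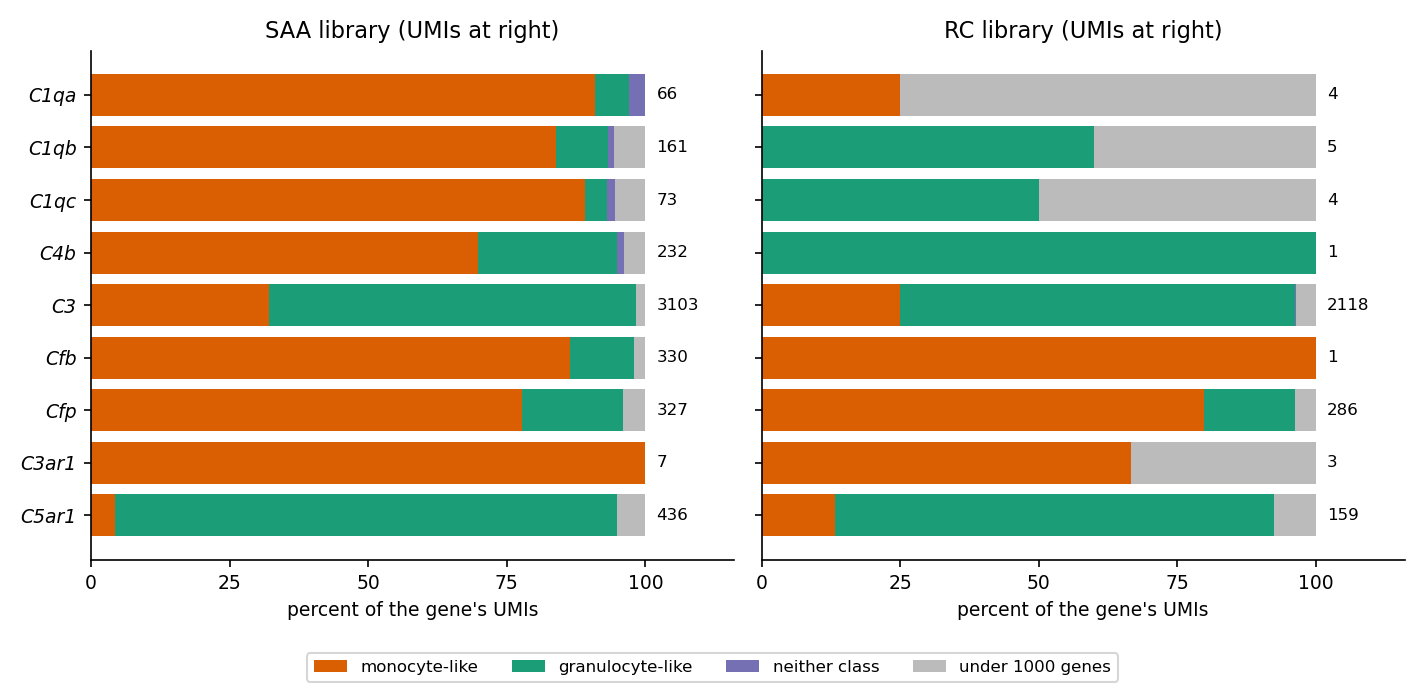
Share of the UMIs of each complement gene held by each kind of barcode, in percent, for the SAA library (left) and the RC library (right), with the number of UMIs beside each bar. C5ar1 and C3 lay mainly in granulocyte-like cells of both libraries, Cfp mainly in monocyte-like cells, and C1qa, C1qb, C1qc, C4b, Cfb and C3ar1 had at most 5 UMIs each in RC.

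Scaled to depth, 6 of the 8 genes past the minimum in SAA cells were higher in monocyte-like than in granulocyte-like cells, 1 was lower and 1 lay within the fold. Over all genes 20% were higher and 8.99% lower by the same rule. C1qc stood at 35.4 (11.6 to 176) times, C1qa at 24.5 (9.09 to 92.9), C1qb at 14.7 (8.61 to 27.0), Cfb at 12.3 (8.72 to 17.7), Cfp at 6.92 (5.20 to 9.33) and C4b at 4.57 (3.36 to 6.27) times the granulocyte-like level. C5ar1 stood at 0.0786 (0.0468 to 0.124) and C3 at 0.793 (0.735 to 0.856) times. In RC cells 3 genes passed the minimum, against backgrounds of 23.5% of all genes higher and 9.73% lower. Cfp was higher at 8.86 (6.45 to 12.4) times, C5ar1 lower at 0.304 (0.182 to 0.485), and C3 was within the fold at 0.636 (0.575 to 0.703).

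Between conditions, 5 of the 8 complement genes past the minimum in monocyte-like cells were higher in SAA, none was lower and 3 lay within the fold. Of all 8662 genes tested there, 7.80% were higher and 8.67% lower. In granulocyte-like cells 3 of 5 were higher and 2 within the fold, against 6.63% higher and 5.12% lower among 8812 genes. The median log2 ratio was 4.39 over the 8 complement genes and -0.06 over all genes in monocyte-like cells, and 1.23 over 5 and 0.04 over all in granulocyte-like cells, with genes at 0 UMIs in RC at their lower bound. These genes were picked with such results in view, so the counts describe them and nothing more. C3ar1 was under the minimum in both classes, and the 3 C1q chains were under it in granulocyte-like cells.

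**Figure D2:**
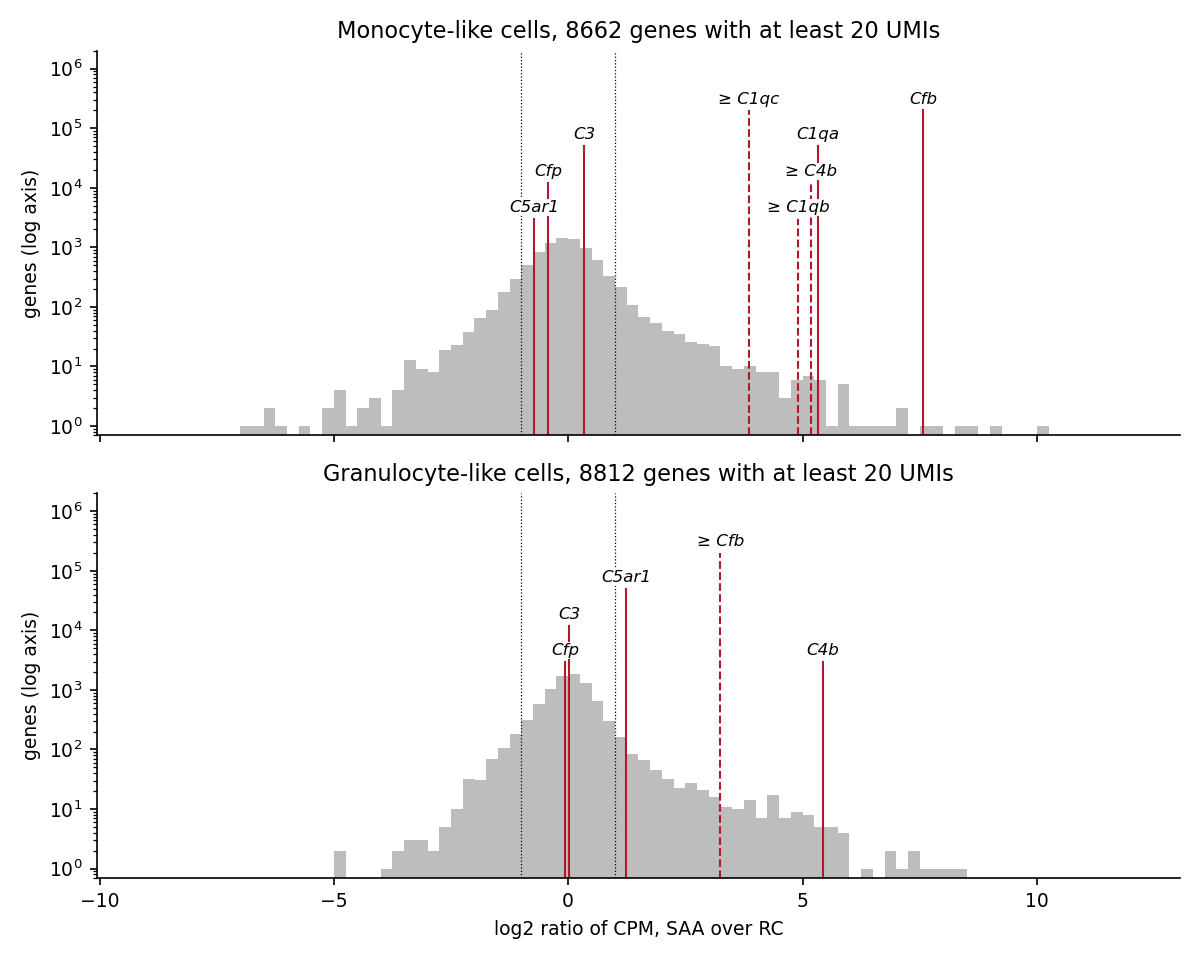
Log2 ratio of CPM, SAA over RC, of all genes with at least 20 UMIs (grey, genes per bin on a log axis) and of the complement genes (red lines), in monocyte-like cells (top) and granulocyte-like cells (bottom). Dotted lines mark the 2-fold limits, dashed lines with ≥ are lower bounds for genes at 0 UMIs in RC. In monocyte-like cells 5 of the 8 lines lay beyond the upper limit, and C3, Cfp and C5ar1 lay within it.

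The 3 chains of C1q, which form the target-binding head of the first component, had 60 to 135 UMIs each in SAA monocyte-like cells and 0 or 1 in RC ones. C1qb had 135 UMIs (66.6 CPM, 55.8 to 78.8) in SAA and 0 UMIs (0 to 2.72 CPM) in RC monocyte-like cells, at least 30.1-fold higher when RC is set to a floor of 3 UMIs. C1qc had 65 UMIs (32.0 CPM, 24.7 to 40.8) in SAA and 0 in RC, at least 14.5-fold higher. C1qa had 60 UMIs (29.6 CPM, 22.6 to 38.1) in SAA and 1 UMI (0.736 CPM) in RC, a ratio of 40.2 (6.94 to 1613). The counting intervals of the 2 class sums thus did not overlap for any chain, but the share of all genes with intervals apart was not counted. Most cells of both libraries held no C1q UMI, as 38 of 285 SAA and 1 of 342 RC monocyte-like cells held any. In granulocyte-like cells C1qa, C1qb and C1qc had 4, 15 and 3 UMIs in SAA and 0, 3 and 2 in RC.

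The C1q UMIs came from few cells. In SAA, 26 of 285 monocyte-like cells (9.12%, 6.05 to 13.1) held at least 2 UMIs of the chains together, and these held 248 of the 260 C1q UMIs of the class. In RC, 0 of 342 cells did, which allows a share of up to 0.877% of cells with such UMIs, at the lower depth of the RC cells. Thinned to the same depth, 25 of 267 SAA and 0 of 266 RC monocyte-like cells showed any C1q UMI. The SAA cell with most held 44 UMIs (17 of C1qa, 11 of C1qb and 16 of C1qc), and the 5 cells with most held 48.5% of all. All 3 chains were found together in 11 of the cells. After thinning, C1qb was seen in 8.61% (5.54 to 12.6) of 267 SAA and 0% of 266 RC monocyte-like cells, and in 0.484% of 413 SAA granulocyte-like cells. The share of cells with a single UMI is no guide here, because 5 of the 23 SAA cells of neither class, mostly carrying T or NK markers, also held 1 C1q UMI each, and after thinning 12.5% (1.55 to 38.3) of 16 of them showed C1qb. None of those 23 held 2 UMIs, which allows a share of up to 13%, above the 9.12% of the monocyte-like cells.

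**Figure D3:**
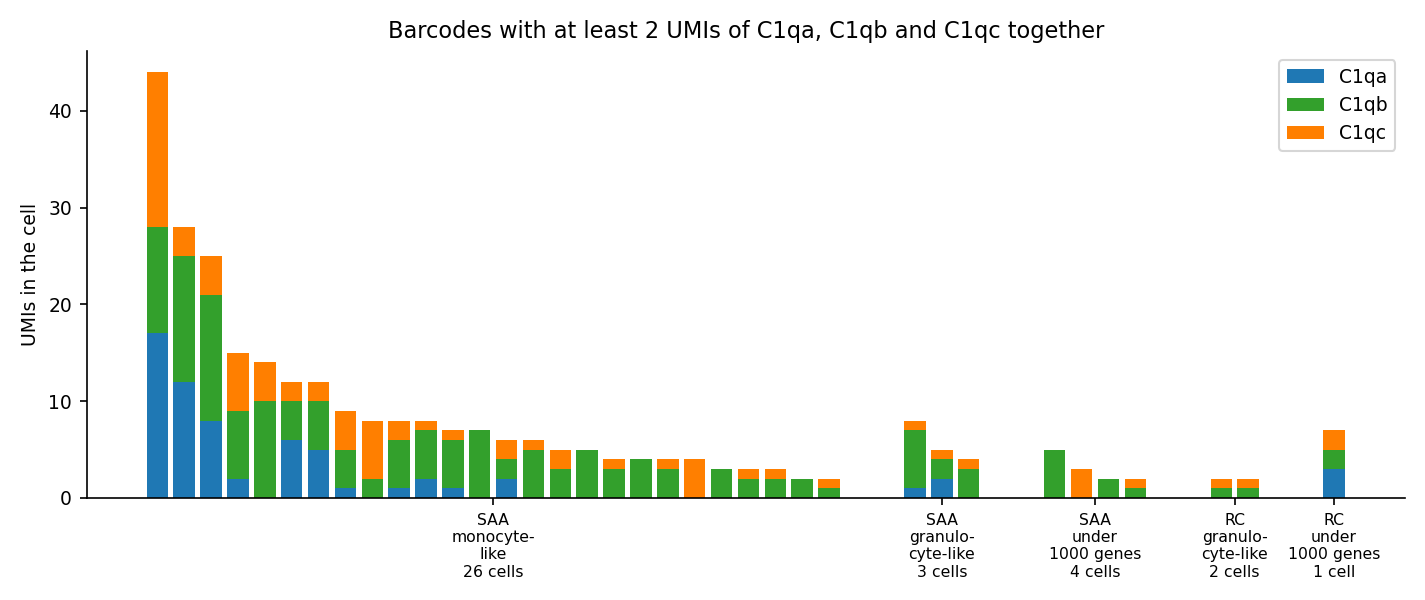
UMIs of C1qa, C1qb and C1qc (stacked) in every barcode with at least 2 C1q UMIs, grouped by library and kind of cell and ordered by their sum. The 26 SAA monocyte-like cells ranged up to 44 UMIs, and RC had no monocyte-like cell of this kind.

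The 3 SAA granulocyte-like cells with at least 2 C1q UMIs were deep, at 10592 to 13612 UMIs, and carried 9 to 18 UMIs of the monocyte genes beside 19 to 445 of the granulocyte genes. Granulocyte-like cells without any monocyte UMI held 3 of the 22 C1q UMIs of their class. Doublets were not called, so a mixed droplet and a mixed cell cannot be told apart. In RC, 2 of 318 granulocyte-like cells (0.629%) held at least 2 C1q UMIs, against 0.713% in SAA. The RC cells carried 0 UMIs of the monocyte genes. Under the gene minimum, 4 of 96 SAA barcodes and 1 of 136 RC barcodes held at least 2. The RC one, of 697 UMIs, held 7 C1q UMIs over all 3 chains. Beside them it held 8 UMIs of Apoe, 5 of Vcam1, 1 each of Adgre1, Hmox1 and Trem2, and 0 of Mertk.

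The 26 SAA monocyte-like cells were compared with the other 259 of their class, as a description of cells chosen for C1q. Genes furthest above the others included Gm15056 at 18.2 times, Procr, the protein C receptor, at 21, the chemokine Cxcl16 at 12.4, the acute phase gene Saa3 at 5.62, the membrane metalloproteinase Mmp14 at 7.87, the nuclease Dnase1l3 at 10.5, Marcks at 5.01, the lysosomal phosphatase Acp2 at 7.11 and Acod1, which makes itaconate, at 5.94. Saa3 was found in 20 of the 26 cells, Marcks in 24 and Mmp14 in 17, whereas Gm15056 was found in 4.

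Other gene lists also differed between these cells and the rest of the class. Genes of the interferon-gamma response summed to 1.95 (1.84 to 2.06) times and MHC class II genes to 2.09 (1.99 to 2.18) times the level of the other cells. Cxcl9, an interferon-gamma induced chemokine, stood at 4.03 (3.62 to 4.47) times and was found in 24 of the 26. The 10 cell cycle genes summed to 0.185 (0.149 to 0.227) times. The 16 macrophage markers summed to 59 UMIs (334 CPM) in the C1q cells and 245 UMIs (132 CPM) in the others, a ratio of 2.53 (1.87 to 3.37). Of them 9 were detected in the C1q cells. Adgre1, which encodes the macrophage antigen F4/80, had 14 UMIs, the receptor for dying cells Mertk 10, the haem-degrading enzyme Hmox1 9, Axl, a relative of Mertk, 7, the adhesion molecule Vcam1 6, Trem2 5, Apoe 5 (all in 1 cell), Mrc1 2 and Spic 1. Against the other cells Adgre1 stood at 1.65 (0.867 to 2.92) and Hmox1 at 1.26 (0.554 to 2.52) times. The intervals of Trem2, Mrc1 and Spic also spanned no difference. Mertk stood at 8.74 (3.38 to 22.1), Axl at 6.12 (2.04 to 16.9), Vcam1 at 12.6 (3.20 to 52.1) and Apoe at 10.5 (2.41 to 45.6) times. The other 7 (Cd163, Siglec1, Timd4, Cd5l, Slc40a1, Folr2 and Marco) were at 0 there and had 0 to 4 UMIs each in the other 259 cells. Over the whole monocyte-like class the macrophage list ran the other way, at 150 CPM in SAA and 643 CPM in RC, but 647 of the 873 RC UMIs were of Apoe. Without Apoe, left out after the values had been seen, the list was at 145 CPM in SAA, with 12 of its 15 genes detected, and at 166 CPM in RC, with 10 detected. The part of such cells in the C1q values was not tested.

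C1qb (chr4:136880129-136886187), C1qc (chr4:136889804-136893065) and C1qa (chr4:136895917-136898803) lie side by side on the minus strand of GRCm38 within 18675 bases. RefSeq promoters (GRCm38.p6) were matched for 6 of the 9 genes, namely C1qb, C1qc, C3, Cfp, C3ar1 and C5ar1. C1qa, C4b and Cfb, which were higher in SAA monocyte-like cells, had no promoter entry and were not searched. Letters of the interferon-gamma activated site (TTCNNNGAA), the interferon response element (GAAA repeated, 2 bases apart), its wider form (GAAA repeated, 3 bases apart) and the ETS-IRF composite (GGAA and then GAAA after 2 bases), searched on both strands, were in the 250 bases before the start of none of the 6. Of 32851 mouse promoters searched over the same length, 7.02%, 2.98%, 2.38% and 2.30% held them. The PU.1 core GAGGAA, after a factor of myeloid cells, was in C1qb from 30 to 25 and in C1qc from 193 to 188 bases before the start, and in 23.3% of promoters. The C/EBP letters TTGCNNAA, after a factor family of granulocytes and the acute phase, were in C3 from 45 to 38 bases before the start, and in 9.56% of promoters. No match overlapped another. The promoters of C1qb (chr4:136886201-136886450, minus strand) and C3 (chr17:57228137-57228386, minus strand) are shown for the contrast between the gene of few SAA cells and the gene of both classes, with the matches in capitals.
C1qb: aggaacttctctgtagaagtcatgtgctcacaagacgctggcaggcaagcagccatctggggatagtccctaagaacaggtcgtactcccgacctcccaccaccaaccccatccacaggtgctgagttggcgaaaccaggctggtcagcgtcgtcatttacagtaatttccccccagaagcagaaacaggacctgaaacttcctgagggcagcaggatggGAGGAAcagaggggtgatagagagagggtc
C3: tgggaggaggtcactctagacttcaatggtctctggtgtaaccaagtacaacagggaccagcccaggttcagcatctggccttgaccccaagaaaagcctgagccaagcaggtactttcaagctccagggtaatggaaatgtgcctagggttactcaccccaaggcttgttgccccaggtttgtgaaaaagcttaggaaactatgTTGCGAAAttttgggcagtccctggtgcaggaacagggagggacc

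C4b, the component laid down after C1, was found in SAA cells of both classes. It had 162 UMIs (79.9 CPM, 68.0 to 93.2) in SAA and 0 UMIs (0 to 2.72 CPM) in RC monocyte-like cells, at least 36.2-fold higher. In granulocyte-like cells it had 58 UMIs (17.5 CPM, 13.3 to 22.6) in SAA and 1 UMI (0.403 CPM) in RC, a ratio of 43.4 (7.48 to 1743). The counting intervals of the libraries did not meet in either class, but the share of all genes with intervals apart was not counted. C4b was spread wider than C1q, over 72 SAA monocyte-like and 36 SAA granulocyte-like cells with at most 10 and 6 UMIs in 1 cell. After thinning it was seen in 14.2% (10.3 to 19.0) of SAA and 0% of RC monocyte-like cells, and in 2.91% (1.51 to 5.02) of SAA and 0% of RC granulocyte-like cells. Granulocyte-like cells with no monocyte UMI, 381 of 421 in SAA, held 34 of the 58 C4b UMIs in SAA and 0 in RC. In SAA, C4b was at 12.2 CPM in them and 46.2 CPM in the 40 others, a ratio of 0.263 (0.152 to 0.464). C4b (chr17:34728380-34743882) has a near-identical neighbour, C4a (chr17:34809092-34823464), which has no row in the tables, so the origin of its reads is uncertain.

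C3, the central component cut by both pathways, had the most UMIs of the set and small differences between the libraries. It had 2053 UMIs (619 CPM, 593 to 647) in SAA and 1512 UMIs (610 CPM, 579 to 641) in RC granulocyte-like cells, a ratio of 1.02 (0.95 to 1.09). In monocyte-like cells it had 996 UMIs (491 CPM, 461 to 523) in SAA and 527 UMIs (388 CPM, 356 to 423) in RC, a ratio of 1.27 (1.14 to 1.41), within the fold. After thinning it was seen in 78% of SAA and 74.4% of RC granulocyte-like cells, and in 66.7% (60.7 to 72.3) of SAA and 56.8% (50.6 to 62.8) of RC monocyte-like cells. C3 (chr17:57203970-57228136) was spread evenly, the 5 cells with most holding 4.14% of the SAA and 6.22% of the RC UMIs of the granulocyte-like class. The SAA monocyte-like cell with most held 42 C3 UMIs.

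Cfb, which encodes factor B, gave the largest ratio of the set that was not a lower bound. It had 285 UMIs (141 CPM, 125 to 158) in SAA and 1 UMI (0.736 CPM, 0.0186 to 4.10) in RC monocyte-like cells, a ratio of 191 (34.0 to 7565). It was found in 129 of 285 SAA cells and 1 of 342 RC cells, and after thinning in 27.0% (21.7 to 32.7) and 0.376% (0.00952 to 2.08). In granulocyte-like cells it had 38 UMIs (11.5 CPM, 8.11 to 15.7) in SAA and 0 in RC, at least 9.47-fold higher. Of these UMIs, 28 lay in the 381 SAA cells with no monocyte UMI. Cfb was at 10.0 CPM in them and 19.2 CPM in the other 40, a ratio of 0.520 (0.245 to 1.20). The 23 SAA cells of neither class held none. Genes of monocyte-like cells were also read at low level in SAA granulocyte-like cells, the monocyte genes of the class rule at 151 CPM beside 2873 CPM in monocyte-like cells and Cxcl9 at 38.3 beside 878 CPM, and the part of free RNA in the granulocyte-like Cfb and C4b values was not tested. Cfb (chr17:34856374-34862518) overlaps the read-through gene Gm20547, which had 0 UMIs in every class, and reads in exons they share may not be assignable to either, so the Cfb count is uncertain. The neighbouring gene C2 lies 85 bases away.

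Cfp, which encodes properdin, lay within the fold in both classes. It had 254 UMIs (125 CPM, 110 to 142) in SAA and 228 UMIs (168 CPM, 147 to 191) in RC monocyte-like cells, a ratio of 0.746 (0.621 to 0.896), and 60 UMIs (18.1 CPM) in SAA and 47 UMIs (19.0 CPM) in RC granulocyte-like cells, a ratio of 0.955 (0.641 to 1.43). After thinning it was seen in 27.3% (22.1 to 33.1) of SAA and 30.5% (25 to 36.4) of RC monocyte-like cells, intervals that overlap. Cfb and Cfp did not follow each other in SAA cells. Of 72 thinned SAA monocyte-like cells with Cfb, 30.6% also held Cfp, against 27.3% of all 267.

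Of the receptors, C5ar1, through which C5a draws in neutrophils, was the granulocyte-like gene of the set. It had 395 UMIs (119 CPM, 108 to 131) in SAA and 126 UMIs (50.8 CPM, 42.3 to 60.5) in RC granulocyte-like cells, a ratio of 2.34 (1.91 to 2.89). After thinning it was seen in 27.8% (23.6 to 32.4) of SAA and 9.78% (6.74 to 13.6) of RC granulocyte-like cells, and no cell held more than 6 UMIs. In monocyte-like cells it had 19 UMIs (9.37 CPM, 5.64 to 14.6) in SAA and 21 UMIs (15.5 CPM, 9.57 to 23.6) in RC, a ratio of 0.606 (0.308 to 1.18) whose interval spans no difference. C3ar1, the C3a receptor, had 7 UMIs in SAA and 2 in RC monocyte-like cells, a ratio of 2.34 (0.446 to 23.1), and 0 in both granulocyte-like classes, which was too few to compare.

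**Figure D4:**
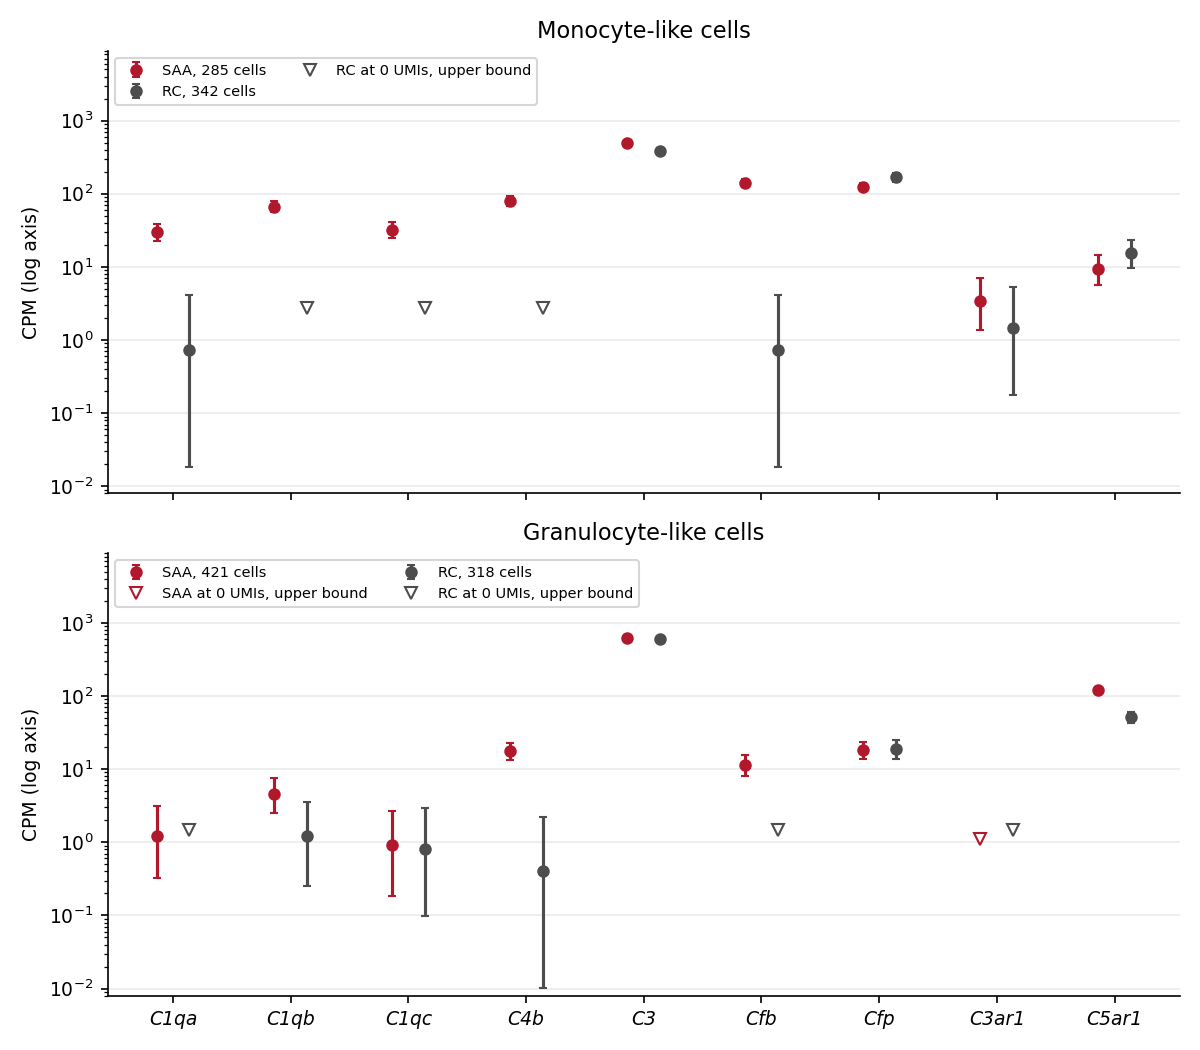
CPM of each complement gene on a log axis in monocyte-like cells (top) and granulocyte-like cells (bottom), SAA (red) left of RC (grey). Points are sums over the cells of 1 library, bars are exact Poisson 95% intervals and open triangles are upper bounds for genes at 0 UMIs. The SAA and RC intervals were apart for C1qa, C1qb, C1qc, C4b and Cfb in monocyte-like cells and for C4b, Cfb and C5ar1 in granulocyte-like cells. The share of all genes with intervals apart was not counted, so nothing particular to complement can be read from it.

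Within the monocyte-like class the levels differed with cell cycle genes. Cells with at least 3 UMIs of the 10 cell cycle genes among 2600 were called cycling, 131 of 267 SAA and 89 of 266 RC cells. In SAA cells C1qb was at 18.1 CPM in cycling and 143 CPM in other cells, a ratio of 0.127 (0.0764 to 0.202). Cfb was at 60.2 CPM in cycling and 255 CPM in other SAA cells, 0.236 (0.178 to 0.310), and C4b at 47.8 and 131 CPM, 0.364 (0.259 to 0.507). C3 was closer, at 432 CPM in cycling and 568 CPM in other SAA cells. Cfp ran differently in the 2 libraries. It was at 115 CPM in cycling and 144 CPM in other SAA cells, 0.794 (0.615 to 1.03), and at 243 CPM in cycling and 122 CPM in other RC cells, 1.99 (1.49 to 2.67). The SAA to RC ratio of Cfp was 0.472 (0.370 to 0.603) in cycling and 1.18 (0.876 to 1.60) in other cells, whereas that of C3 was 1.04 (0.890 to 1.22) and 1.46 (1.25 to 1.72). C4b and Cfb were not confined to either kind, with 58 and 73 UMIs in cycling SAA cells and 0 of each in cycling RC cells. In SAA 23 of the monocyte-like cells lay next to the limit, so these are ranges of a score and not cell types.

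The granulocyte-like class was split by whether azurophil granule UMIs, the early kind, exceeded specific granule UMIs, the later kind. Azurophil-rich cells numbered 31 of 421 in SAA and 51 of 318 in RC, and the 4 azurophil granule genes summed to 5399 CPM in SAA and 10602 CPM in RC. C5ar1 was low in them, at 26.6 CPM against 134 CPM in the rest in SAA, a ratio of 0.199 (0.102 to 0.351), and at 3.49 against 65.0 CPM in RC, 0.0537 (0.00643 to 0.198). C3 was also lower in them, at 368 against 659 CPM in SAA and 484 against 648 CPM in RC. C4b went the other way in SAA, at 42.1 against 13.6 CPM, a ratio of 3.09 (1.69 to 5.48), on 19 UMIs in 8 of the 31 cells. So did Cfp in SAA, at 35.5 against 15.4 CPM, 2.31 (1.22 to 4.17). In RC the ratio of Cfp was 1.56 (0.786 to 2.97), an interval that spans no difference. The part of cells with markers of both classes in these values was not tested. The SAA to RC ratio of C5ar1 was 7.61 (1.69 to 70.0) in azurophil-rich cells, on 12 and 2 UMIs, and 2.06 (1.68 to 2.54) in the rest. The part of granulocyte stage in the difference, also within the rest, was not tested.

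**Figure D5:**
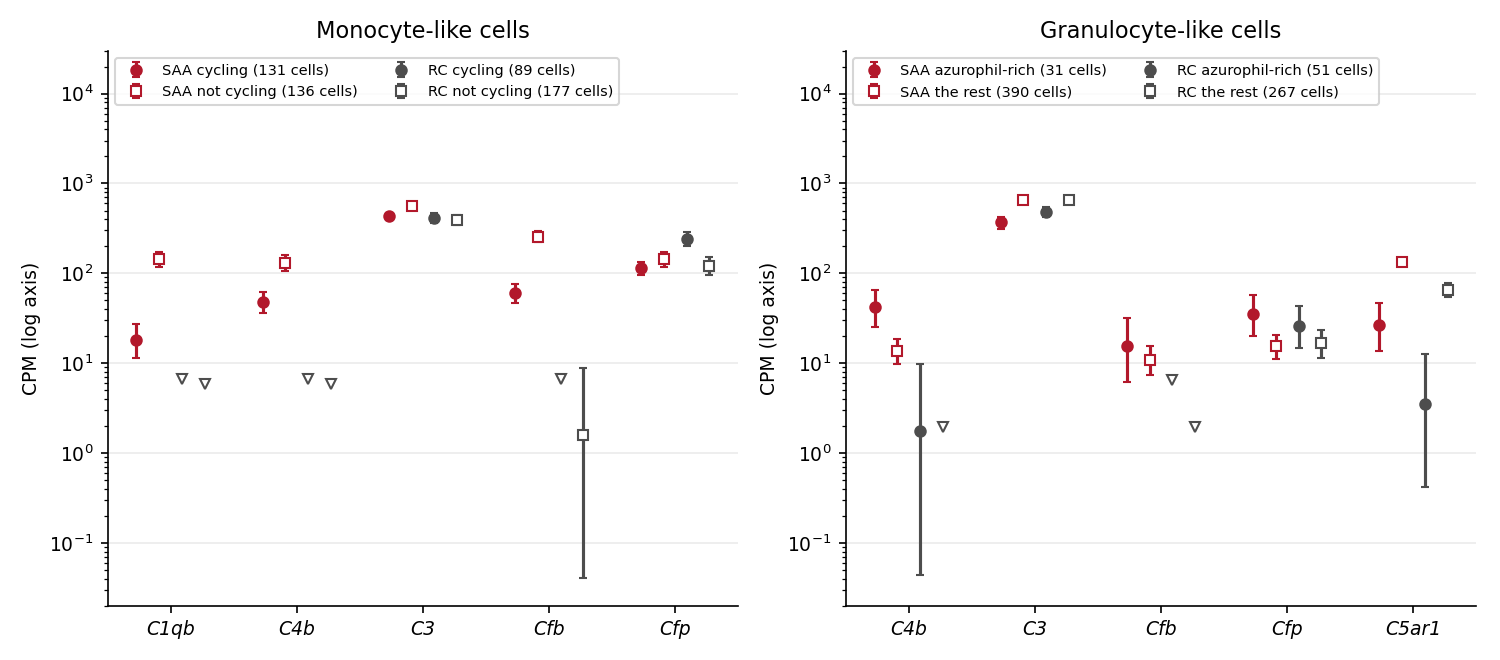
CPM on a log axis within the classes. Left, monocyte-like cells that were cycling (filled) or not (open). Right, granulocyte-like cells with more azurophil than specific granule UMIs (filled) or the rest (open). SAA is red and left of RC in grey, bars are exact Poisson 95% intervals, and triangles are upper bounds at 0 UMIs. C1qb, C4b and Cfb were lower in cycling than in other SAA cells, and C5ar1 was lower in azurophil-rich cells of both libraries.

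Across cells, the genes most like each complement gene were ranked by Pearson correlation of log2(CPM of the cell + 100), as a description. The cells of a correlation share 1 library, and sparse counts lower r. Over 285 SAA monocyte-like cells Cfb went with Cxcl9 (r = 0.60), Saa3 (0.54) and Ly6i (0.49), and C3 with Lyz2 (0.45), the lysozyme of myeloid cells, Prdx5 (0.37) and Ctsc (0.36). Over 421 SAA granulocyte-like cells C3 went with the calprotectin genes S100a8 (0.39) and S100a9 (0.36) and with Pglyrp1 (0.35), C4b with Cd74 (0.39), Lpl (0.39) and H2-Aa (0.38), Cfb with Saa3 (0.33) and Cfp with Tgfbi (0.38). In RC, Cfp went with Ppia (0.33) and Lmnb1 (0.30) over 342 monocyte-like cells and with Lgals3 (0.32) and Lgals1 (0.31) over 318 granulocyte-like cells. In the RC monocyte-like cells 2074 genes were ranked, and Cfp itself had r = 0.23 with log depth. The part of depth in these correlations was not tested. No gene reached 0.3 with C5ar1 over the granulocyte-like cells of either library.

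A split by Cxcl9 was chosen after the correlation had been seen. In the 150 SAA monocyte-like cells with a Cxcl9 UMI, Cfb was at 220 CPM against 42.0 CPM in the 135 without, a ratio of 5.22 (3.70 to 7.56). C1qb was at 109 against 13.3 CPM, C4b at 104 against 49.8 CPM, C3 at 573 against 389 CPM, and Cfp at 127 against 123 CPM. Without a Cxcl9 UMI, SAA cells still held 38 Cfb UMIs, against 1 in the 341 RC cells without one, and 45 C4b UMIs, against 0. C3 was at 389 CPM in SAA and 389 CPM in RC cells without Cxcl9, a ratio of 1.0 (0.873 to 1.15). The interferon-gamma response list as a whole was at 4673 CPM in SAA and 250 CPM in RC monocyte-like cells, and at 1300 CPM in SAA and 106 CPM in RC granulocyte-like cells, and its part in the differences was not tested.

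Of 48 further complement genes, of which C4a has no row, 12 passed the minimum in monocyte-like cells, of which 3 were higher in SAA and 4 lower, beside 7.80% and 8.67% of all genes. In granulocyte-like cells 9 passed it, of which 1 was higher and 1 lower, beside 6.63% and 5.12%. Among genes of the first steps, C1ra, a protease of the C1 complex, had 39 UMIs in SAA and 1 in RC monocyte-like cells, a ratio of 26.1 (4.42 to 1058), and C1rl had 91 UMIs in SAA and 27 in RC, 2.26 (1.46 to 3.61). C1ra has a close copy, C1rb, which was at 0 UMIs, so its reads are uncertain. The scavenger collectin Colec12 was lower at 0.295 (0.131 to 0.621). None of the 7 terminal pathway genes passed the minimum. Thrombomodulin (Thbd) was lower at 0.279 (0.119 to 0.605).

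Among receptors and partners, calreticulin (Calr), a chaperone of the endoplasmic reticulum that also binds C1q, was higher at 566 CPM in SAA and 119 CPM in RC monocyte-like cells, a ratio of 4.78 (4.05 to 5.67), and within the fold at 1.33 (1.19 to 1.5) in granulocyte-like cells. Its scavenger partner Lrp1 was lower at 90.2 CPM in SAA and 247 CPM in RC monocyte-like cells, a ratio of 0.365 (0.303 to 0.438). The chains of complement receptor 3, Itgam and Itgb2, were within the fold, at 0.728 (0.630 to 0.841) and 1.02 (0.897 to 1.15) in monocyte-like cells and at 1.14 (1.04 to 1.25) and 1.33 (1.21 to 1.45) in granulocyte-like cells. Cd93 was within the fold at 0.679 (0.486 to 0.949) in monocyte-like cells and lower at 0.318 (0.169 to 0.574) in granulocyte-like cells, and C1qbp was at 1.72 (1.31 to 2.27) and 1.20 (0.924 to 1.56). The decay accelerating gene Cd55 was past the fold in granulocyte-like cells on 15 UMIs in SAA and 5 in RC, 2.24 (0.775 to 7.89), an interval that spans no difference.

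T or NK markers were at 145 CPM in SAA and 4.42 CPM in RC monocyte-like cells, with 10 of 10 detected in SAA and 3 in RC, and at 345 CPM in SAA and 410 CPM in RC granulocyte-like cells, with 10 detected in SAA and 2 in RC. Nkg7 and Cd3d made up all of the RC sum, and the other 8 markers held 276 UMIs in SAA and 0 in RC granulocyte-like cells. Leaving out cells with at least 3 of these UMIs other than Nkg7 and Cd3d, a choice made after the data had been seen, changed no call between conditions.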

How the data were processed

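Single-cell RNA sequencing of sorted marrow cells was analysed in 2 libraries, 1 of SAA and 1 of RC mice. Each deposited file holds raw UMI counts (genes by barcodes), which the authors made from Chromium 5′ libraries with Cell Ranger 6.0.1 against mm10, without normalization. The study's methods remove cells with over 25% mitochondrial RNA or under 1000 genes. Here the minimum of 1000 genes was kept and the mitochondrial limit was an alternative. Doublets were not called.

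Counts of the cells of a class were added up in each library and scaled to 1000000. Sums, ratios, shares and 95% intervals used scipy 1.17.1, pandas 2.3.3 and numpy 2.4.6 under Python 3.11.15, and the plots used matplotlib 3.10.9. A gene at 0 UMIs on 1 side was compared with a floor of 3 UMIs over the class. Alternatives changed the cell filter, the class margin, the scaling (TMM of edgeR 4.0.16 under R 4.3.3, or the median of ratios), the weight of cells, single cells left out, the thinning depth, the fold and the minimum. The intervals and the thinning were tested on simulated data. The simulated counts were Poisson draws, the model that the intervals assume. That test therefore cannot show how the intervals hold where UMIs are clumped in few cells.

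The named genes are the 9 complement genes, the further complement genes past the fold with the 4 of most UMIs within it, the 10 genes highest in C1q cells by the lower bound of their interval, and up to 3 genes per complement gene with a correlation of at least 0.3. Of the genes so chosen, 2 are not reported here. Cxcl9 as a split, Apoe, Nkg7 and Cd3d as genes left out of lists, and Gm20547 were chosen after their values had been seen. The genes and lists were chosen with earlier results of these data known. Gene positions come from GENCODE M21 on GRCm38, which is not stated to be the annotation the authors used.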

Additional observations from a re-analysis of the deposited data

Results flagged for a closer look

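Barcodes with under 1000 genes stand outside the comparisons above. For C4b, Cfb and C5ar1 the SAA interval in them lay above the RC interval. The share of all genes that do so was not counted, so nothing particular to complement can be read from it. C4b was at 64.8 CPM (29.6 to 123) in SAA and at 0 UMIs (0 to 16.6 CPM) in RC. Cfb was at 50.4 CPM (20.3 to 104) in SAA and at 0 UMIs (0 to 16.6 CPM) in RC. C5ar1 was at 158 CPM (99.2 to 240) in SAA and 54.0 CPM (27.9 to 94.3) in RC. These values rest on 9, 7 and 22 UMIs in 96 SAA barcodes. The barcodes also differed in make-up, with the monocyte genes of the class rule at 1015 CPM in SAA and 2804 CPM in RC.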

How the results depend on the processing

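No ratio past the 2-fold limit changed direction under any alternative tried. Between conditions 135 of 143 log2 ratios stayed within their own interval, and between classes 110 of 121. Where RC held 0 or 1 UMI these intervals are wide, so staying within them says little. That of C1qa in monocyte-like cells ran from 6.94 to 1613. With a fold of 1.5, 1 gene, C5ar1, was lower in SAA monocyte-like cells, and none at the fold of 2. In RC cells C3 joined C5ar1 as lower in monocyte-like than granulocyte-like cells under TMM and under the median of ratios, which made 2 genes in place of 1. TMM shifts the log2 ratio of all genes by 0.10 between conditions in monocyte-like cells, and by -0.37 in SAA and -0.40 in RC between classes. The ratio of C5ar1 in monocyte-like cells between conditions, within the fold of 2, was 0.606 and became 1.70 without cells holding markers of both classes. Weighting cells equally gave 225 for Cfb in monocyte-like and 96.6 for C4b in granulocyte-like cells. Where an alternative took away the 1 RC UMI, the value became a lower bound against the floor: at least 60 for Cfb without the cell with most UMIs on each side, at least 8.09 for C1qa with at least 1500 genes, and at least 9.17 for C4b in granulocyte-like cells without cells holding markers of both classes. Of 56 shares at other thinning depths 30 left their interval, as depth sets them. No paired analysis was possible because each condition has 1 library. With 1 pooled library per condition the spread between mice is unknown, and genes under about 20 UMIs could not be compared.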
